A study of Mus musculus with 24 samples.

Results

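The genes of the mitochondrial respiratory chain were examined in the hippocampus of male Swiss-Webster mice that had free access to corticosterone for a single night. Genes whose symbol names a nuclear-encoded subunit of complexes I to V, or a complex I assembly factor of the Ndufaf series, were taken through the probes' accessions, and the brightest probe stood for each gene. This gave 92 genes with 119 probes, of 23787 genes and 56605 probes in all. The members were 36 genes of complex I, 8 complex I assembly factors, 4 genes of complex II, 8 of complex III, 17 of complex IV (with the supercomplex factor Cox7a2l), 17 of complex V, and Ndufa4 and its paralog Ndufa4l2, which are kept apart because NDUFA4 is found with complex IV. Cox5b, Ndufb1, Ndufb4b and Ndufb4c had no probe matched through its accession and were not analysed here.

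The mice were 12 weeks old. Treated animals drank corticosterone at 100 µg/ml in water with 0.45% hydroxypropyl-β-cyclodextrin through the 12 h dark phase, and control animals drank the vehicle with the same cyclodextrin. Whole hippocampi were collected during hour 1, hour 5 or hour 9 of the light phase that followed, from 8 control and 8 treated animals at each hour, extracted singly and not pooled. Each of the 24 arrays carried 1 control animal in the Cy3 channel and 1 treated animal in the Cy5 channel, and no array had the dyes exchanged, so a difference between corticosterone and control cannot be told apart from a difference between the dyes. Comparisons between hours were made within 1 dye, and the change of a difference between hours is free of a constant dye effect.

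The respiratory chain moves electrons from NADH and succinate through complexes I and II, ubiquinone, complex III, cytochrome c and complex IV to oxygen, and complex V, the ATP synthase, uses the proton gradient that this builds. Most subunits are encoded in the nucleus, while a core of complexes I, III, IV and V is encoded in mitochondrial DNA. Neurons depend on this chain for most of their ATP, and several complex IV subunits come as isoform pairs that differ between tissues. The 13 mitochondrial-encoded subunits of the list used here were not matched to a probe, so the values below cover nuclear genes only. In whole tissue, fewer cells of a type and less RNA per cell cannot be told apart.

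Of the 92 probes, 91 were well above background, by the scanner software's own call, in both channels of all 24 arrays, and Cox8c, a testis isoform of complex IV, was not well above background in any channel. Over all probes, 60.8% to 67.2% per array passed that call in Cy3 and 64.0% to 73.5% in Cy5, and no spot was saturated. All 7 hippocampal markers listed, among them Prox1 of the dentate gyrus and Wfs1 of CA1, were above background on all 24 arrays in both channels. Of the 4 markers for striatum and thalamus, Drd2 was above background on 0 arrays in Cy3 and 9 in Cy5, and the other three on all 24 in both. Levels are normalized intensities and compare animals, not genes. The SD of a member's log2 level between animals of 1 group was 0.0946 at the median (n = 8 animals in each of 6 groups), against 0.153 for the brightest probes of the 15437 named genes with an intensity of 50 or more. The complex V genes had a median SD of 0.0849 and the complex IV genes of 0.162.

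At hour 1, when the drinking period had just ended, 17 of 92 genes differed between corticosterone and control at an adjusted p under 0.05 (limma's separate channel test, Benjamini-Hochberg over 56605 probes), 8 higher and 9 lower. This is 18.5% of the members, where 17.5% of all probes and 24.4% of the brightest probes of named genes with an intensity of 50 or more were called. By direction, 8.85% of all probes were called higher and 8.67% lower. At hour 5, 17 of 92 were called, 7 higher and 10 lower, where 18.1% of all probes and 23.7% of those named genes were called, 8.62% of all probes higher and 9.47% lower. At hour 9, 11 of 92 were called, 7 higher and 4 lower, Cox8c among them, where 14% of all probes and 16.5% of those named genes were called, 7.01% of all probes higher and 6.97% lower. The members' share was thus near that of all probes and below that of the bright named genes at each hour, with calls in both directions, and these shares were not compared by a test. The count was 7 at hour 1 without slide 2, where 8.09% of all probes were called, 10 and 6 at hour 5 without slides 1 and 3 (10.8% and 7.36% of all probes), and 1 at hour 9 without slide 1 (3.37%). At hour 9 it was 11 and 12 without slides 2 and 3.

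The sizes were small. The median log2 difference over the members was -0.0007 at hour 1, -0.02 at hour 5 and 0.01 at hour 9, and the median absolute difference was 0.06, 0.06 and 0.05, against 0.10, 0.10 and 0.08 over the brightest probes of named genes with an intensity of 50 or more. Among the members above background, the largest log2 differences were 0.20 (Uqcrc1) upward and -0.28 (Cox8b, next to Cox6a2 with -0.28) downward at hour 5. Neither Cox8b nor Cox6a2 was called there, and Cox8b ran from -0.42 to -0.04 over the alternatives, called under 2 of 18. The median member ratio of an array ran from -0.13 to 0.07 across the 24 arrays and was above 0 on 8 of them. Of the 92 genes, 69 were called at no hour, which is 75% against 70.2% of all probes and 64.7% of the bright named genes, and 7 were called at all 3 hours, which is 7.61% against 5.94% and 9.55%.

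**Figure D1:**
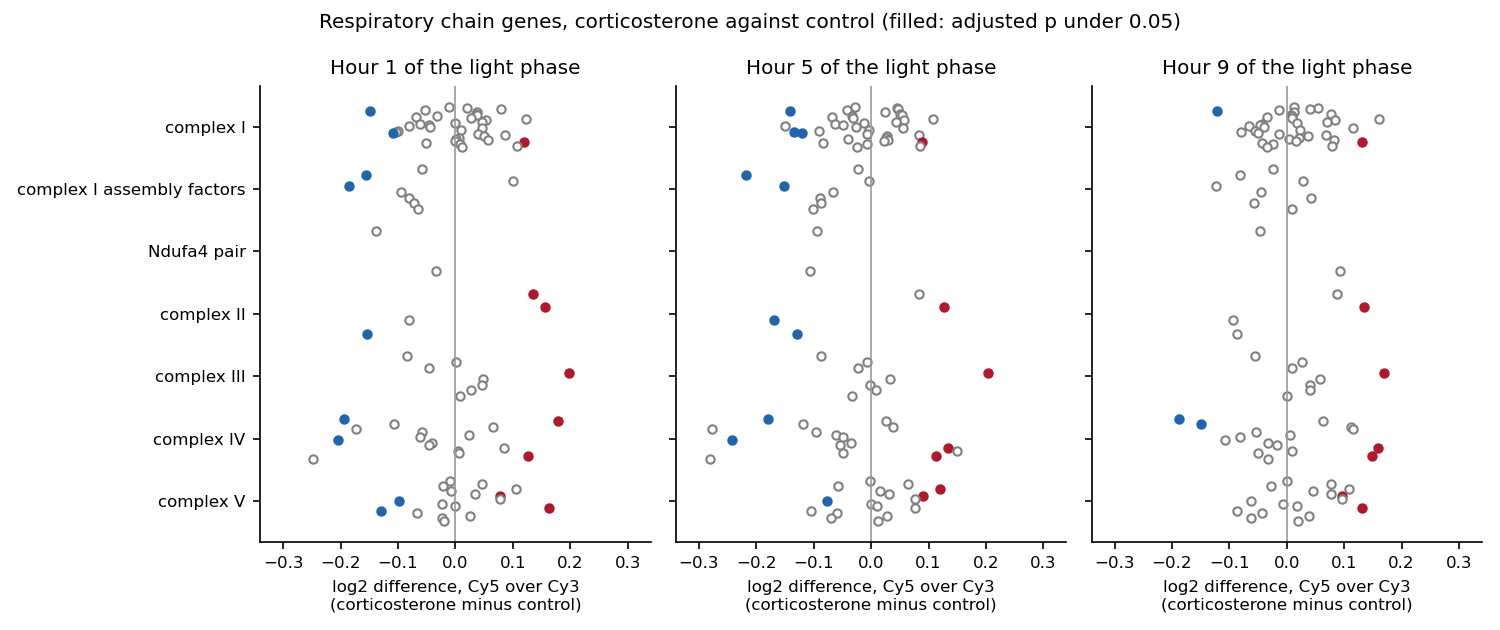
Log2 difference between the treated (Cy5) and the control (Cy3) animals for the 91 members above background, by complex, at each hour; each point is 1 gene, and filled points had an adjusted p under 0.05 (red higher, blue lower with corticosterone). Called genes lie on both sides of 0 in complexes I, II, IV and V, and all points lie between -0.28 and 0.20.

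Complex I, which oxidises NADH, had 3 of 36 genes called at hour 1, 4 at hour 5 and 2 at hour 9. At these hours 17.5%, 18.1% and 14% of all probes were called, and 24.4%, 23.7% and 16.5% of the bright named genes. The counts given below for the assembly factors and for complexes II to V stand beside the same shares, and none was compared by a test. Ndufs7, the core subunit that holds the iron-sulphur cluster next to the ubiquinone site, was higher at every hour. In control animals at hour 9 its level ran from 16646 over a median of 17708 to 18893, and in treated animals from 17976 over 19224 to 20462. The groups overlap, and the treated animal had the higher level on 7 of 8 arrays. Ndufs7 had a log2 difference of 0.12 ± 0.035 (SE, n = 8 arrays, adjusted p = 0.0049) at hour 1, 0.09 ± 0.035 (adjusted p = 0.037) at hour 5 and 0.13 ± 0.035 (adjusted p = 0.0028) at hour 9.

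Ndufa13, an accessory subunit also known as GRIM-19, was lower in the treated channel at every hour. At hour 1 control animals ran from 61283 over a median of 62554 to 67350 and treated animals from 54410 over 56996 to 64140, so the groups overlap through 1 treated animal that lies above the others. Ndufa13 had a log2 difference of -0.15 ± 0.038 (adjusted p = 0.0017) at hour 1, -0.14 (adjusted p = 0.0029) at hour 5 and -0.12 (adjusted p = 0.014) at hour 9. These differences rest on the quantile step between channels and arrays. With loess alone they were -0.0016, 0.01 and 0.04, with adjusted p of 0.96, 0.77 and 0.54. The membrane arm subunits Ndufc1 (-0.11 at hour 1 and -0.12 at hour 5) and Ndufb9 (-0.13 at hour 5) were also called lower. Neither Ndufs1 nor Ndufv1 passed the test. Ndufs1, which holds iron-sulphur clusters of the electron path, had a log2 difference of 0.09 at hour 1 (adjusted p = 0.053), with the treated animal higher on 8 of 8 arrays, and Ndufv1, which binds NADH and flavin, had 0.01 (adjusted p = 0.94).

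Of the 8 complex I assembly factors, Ndufaf2 and Ndufaf4 were called, both lower. Ndufaf2, a chaperone of late complex I assembly, ran from 1642 over a median of 1950 to 2462 in control animals at hour 5 and from 1426 over 1712 to 1869 in treated animals. The treated animal was lower on 8 of 8 arrays, with a log2 difference of -0.22 ± 0.051 (adjusted p = 0.0011), while at hour 9 the difference was -0.08 (adjusted p = 0.26). Ndufaf4 had -0.19 at hour 1 (adjusted p = 0.0037), -0.15 at hour 5 (adjusted p = 0.017) and -0.12 at hour 9 (adjusted p = 0.067). No change of these differences between hours was called. Ndufa4 and Ndufa4l2 were called at no hour.

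Complex II, succinate dehydrogenase, is the only complex of the chain with all its subunits encoded in the nucleus, and each of its 4 genes was called at 1 or more hours, in opposite directions, where 70.2% of all probes and 64.7% of the bright named genes were called at no hour. The catalytic subunits Sdha and Sdhb were higher in the treated channel where called, by their brightest probe alone. Sdhb, the iron-sulphur subunit, ran from 20937 over a median of 21849 to 22443 in control animals at hour 9 and from 22785 over 23562 to 26109 in treated animals, and the groups do not overlap. Its log2 difference was 0.16 ± 0.047 (adjusted p = 0.009) at hour 1, 0.13 (adjusted p = 0.033) at hour 5 and 0.14 (adjusted p = 0.028) at hour 9. A dimmer probe for Sdhb had 0.01, -0.05 and -0.10 at the same hours and was called at none, so the 2 probes of this gene do not give the same picture.

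Sdha, the flavoprotein that oxidises succinate, was called higher at hour 1, when control animals ran from 12649 over 13552 to 15505 and treated animals from 14246 over 15282 to 17572. The difference was 0.14 ± 0.048 on the log2 scale (adjusted p = 0.027), with 8 of 8 arrays in this direction, and 0.08 and 0.09 at hours 5 and 9 (adjusted p = 0.2 and 0.19). The membrane anchors Sdhc and Sdhd were lower where called. Sdhd had -0.15 ± 0.04 (adjusted p = 0.0025) at hour 1 and -0.13 (adjusted p = 0.011) at hour 5, and -0.09 (adjusted p = 0.11) at hour 9. Sdhc had -0.17 ± 0.059 at hour 5 (adjusted p = 0.027).

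In complex III, 1 of 8 genes was called at each hour, and it was the same gene, Uqcrc1, a core protein of the matrix side. Control animals ran from 13496 over a median of 14130 to 14328 at hour 1, from 13162 over 15621 to 17184 at hour 5 and from 13612 over 15290 to 16458 at hour 9. Treated animals ran from 14186 over 16038 to 17223, from 16723 over 17389 to 19446 and from 16210 over 17061 to 18274. The treated group was shifted upward at each hour, with some overlap. The log2 difference was 0.20 ± 0.042 at hour 1 (8 of 8 arrays, adjusted p = 2e-04), 0.20 at hour 5 (7 of 8 arrays, adjusted p = 0.00014) and 0.17 at hour 9 (7 of 8 arrays, adjusted p = 0.0019). Uqcrfs1, the Rieske iron-sulphur protein, had 0.05, -0.0023 and 0.04, with adjusted p from 0.47 to 0.98.

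Complex IV, cytochrome c oxidase, had 4 of 17 genes called at hours 1 and 5 and 5 at hour 9. Cox4i1, the isoform of subunit 4 found in most tissues, was the member with the smallest adjusted p among those lower. Control animals ran from 61881 over a median of 64339 to 73017 at hour 1, from 56322 over 62846 to 69555 at hour 5 and from 56322 over 65827 to 72403 at hour 9. Treated animals ran from 55227 over 57102 to 58844, from 52684 over 55092 to 58147 and from 53386 over 57102 to 58488. The groups do not overlap at hour 1 and overlap at hours 5 and 9, and the treated animal was not higher on any of the 24 arrays. The log2 difference was -0.19 ± 0.039 at hour 1 (adjusted p = 8.8e-05), -0.18 at hour 5 (adjusted p = 0.00025) and -0.19 at hour 9 (adjusted p = 0.00024). Without the quantile step the same spots gave -0.03, -0.03 and -0.01, with adjusted p of 0.7, 0.83 and 0.91.

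Cox8a, the isoform of subunit 8 found in most tissues, was higher in the treated channel. Without the quantile step its log2 difference moved upward, as that of Cox4i1 did, and so grew in size. At hour 9 control animals ran from 67551 over 69834 to 75179 and treated animals from 75015 over 77755 to 80781, with the ranges just touching. The log2 difference was 0.13 ± 0.037 (adjusted p = 0.0052), 0.11 (adjusted p = 0.013) and 0.15 (adjusted p = 0.0016) at hours 1, 5 and 9, and with loess alone 0.35, 0.35 and 0.36. The size of the difference between channels thus depended on the normalization for Cox4i1, Ndufa13 and Cox8a, among others, while the values of Sdhb (0.15, 0.12 and 0.12 with loess alone) and Atp5g2 (0.07, 0.09 and 0.09) moved little. Sdhb then passed the test at hour 1 alone (adjusted p = 0.018, 0.053 and 0.064), and Ndufs7 had 0.08, 0.06 and 0.10 (adjusted p = 0.15, 0.27 and 0.089). Of the 7 genes called at all 3 hours, Cox8a alone was still called at all of them with loess alone. With the processed signals of the scanner software its log2 difference stayed at 0.13, 0.11 and 0.15 but was called at none (adjusted p = 0.11, 0.22 and 0.089), while the other 6 were called at all 3.

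**Figure D2:**
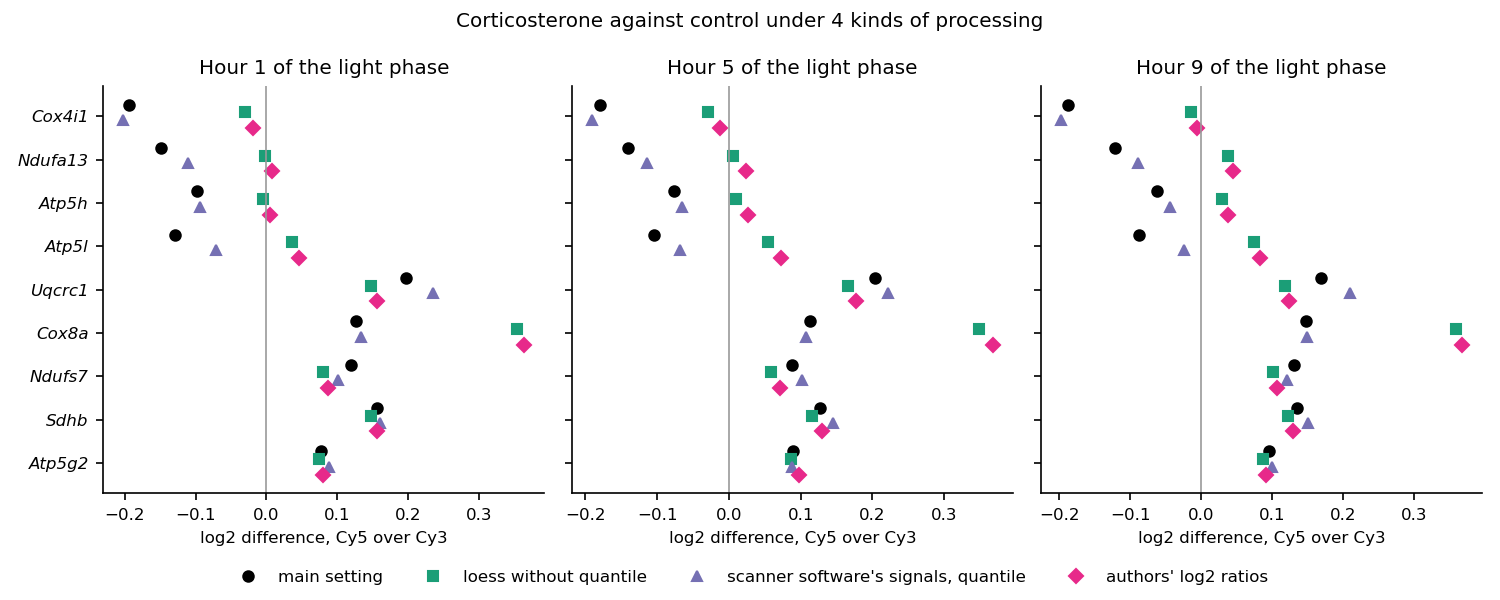
Log2 difference between treated (Cy5) and control (Cy3) animals for 9 genes at each hour, under the main setting (black circles), loess without the quantile step (green squares), the scanner software's processed signals with the quantile step (violet triangles) and the authors' own log2 ratios (pink diamonds). Cox4i1, Ndufa13, Atp5h and Atp5l lie near or above 0 in the settings without the quantile step, and Cox8a moves from 0.13 to 0.35 at hour 1.

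Complex IV has several isoforms typical of other tissues. Cox4i2, a lung isoform induced by low oxygen, was called higher at hour 1 alone (0.18 ± 0.059, 8 of 8 arrays, adjusted p = 0.023), from a control range of 292 to 391 and a treated range of 344 to 423. Cox7a1, the heart and muscle isoform of subunit 7a, was called lower at hour 1 (-0.20 ± 0.071, adjusted p = 0.03) and hour 5 (-0.24, adjusted p = 0.0091). Its counterpart Cox7a2 had -0.04 at both hours (adjusted p = 0.42 and 0.5). Cox6a1 and Cox6a2, Cox6b1 and Cox6b2, and Cox8b were called at no hour. Under 3 of 18 alternatives Cox6a1 was called higher at each hour, with a log2 difference of up to 0.31, 0.32 and 0.32 in place of 0.07, 0.04 and 0.11. Cox7b was called higher at hours 5 and 9 (0.13 and 0.16, adjusted p = 0.021 and 0.0082) and Cox5a lower at hour 9 (-0.15, adjusted p = 0.035). Cox7a2l was called at no hour. For Cox8c, called at hour 9, no fold is given, since both groups lay below background. Of the markers listed for skeletal muscle and brown fat, Ckm was above background on no array and Ucp1 in no control animal, and none of the 6 markers of that list was called at any hour.

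In complex V, 4 of 17 genes were called at hour 1, 3 at hour 5 and 2 at hour 9. Atp5g2, 1 of 3 genes for the c subunit that forms the rotor ring, had the smallest spread between animals of all members (SD 0.0426 on the log2 scale). At hour 9 control animals ran from 27017 over 28984 to 29532 and treated animals from 29806 over 30543 to 31415, and the groups do not overlap. Atp5g2 had a log2 difference of 0.08 ± 0.027 (adjusted p = 0.011), 0.09 (adjusted p = 0.0033) and 0.10 (adjusted p = 0.0024) at hours 1, 5 and 9. The other genes of the c subunit, Atp5g1 and Atp5g3, encode the same mature protein and were called at no hour, with 0.03 to 0.08 for Atp5g1 and 0.08 to 0.10 for Atp5g3. Under 4, 4 and 5 of 18 alternatives Atp5g3 was called higher at hours 1, 5 and 9, with up to 0.13, 0.14 and 0.15, so these values do not set it apart from Atp5g2.

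Atp5k, subunit e, which takes part in dimers of the enzyme, was higher at hour 1 (0.16 ± 0.035, 8 of 8 arrays, adjusted p = 0.00019) and hour 9 (0.13, adjusted p = 0.0032). A separate probe for Atp5k gave 0.17 and 0.18 at these hours and was called at both. Atp5d, of the central stalk, was higher at hour 5 (0.12, adjusted p = 0.032). This call held under 11 of 18 alternatives, with a log2 difference from 0.06 to 0.21. Atp5h, of the peripheral stalk, was lower at hour 1 (-0.10 ± 0.029, adjusted p = 0.0044) and hour 5 (-0.08, adjusted p = 0.025), and Atp5l, subunit g, at hour 1 (-0.13, adjusted p = 0.017), but with loess alone Atp5h had -0.01 and 0.01 and Atp5l 0.04. Atp5b, the catalytic beta subunit, was called at no hour (0.05 to 0.08), but under 3 of 18 alternatives it was called higher at each, with up to 0.28, 0.30 and 0.29. Atp5a1, the alpha subunit, had -0.01, -0.0026 and 0.0003, and up to 0.14, 0.15 and 0.16 under the 3 alternatives that called it. Atpif1, the inhibitor of the enzyme, is no member by its name, and its log2 difference at hours 1, 5 and 9 was 0.0023, 0.01 and 0.03 (adjusted p from 0.69 to 0.98).

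More than 1 probe was present for 25 members, with 27 further probes. When the brightest probe was called, a further probe of the same gene was called too for 1 of 4 genes at hour 1, 0 of 2 at hour 5 and 1 of 2 at hour 9, Atp5k each time. Further probes of Ndufa10 and Atp5k (higher) and Ndufb5 (lower) were called at all 3 hours, those of Ndufa5 at hours 1 and 5 and of Ndufa3 at hour 1 (higher), where the brightest probe of these genes was not called, except that of Atp5k at hours 1 and 9. No gene had probes called in opposite directions.

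**Figure D3:**
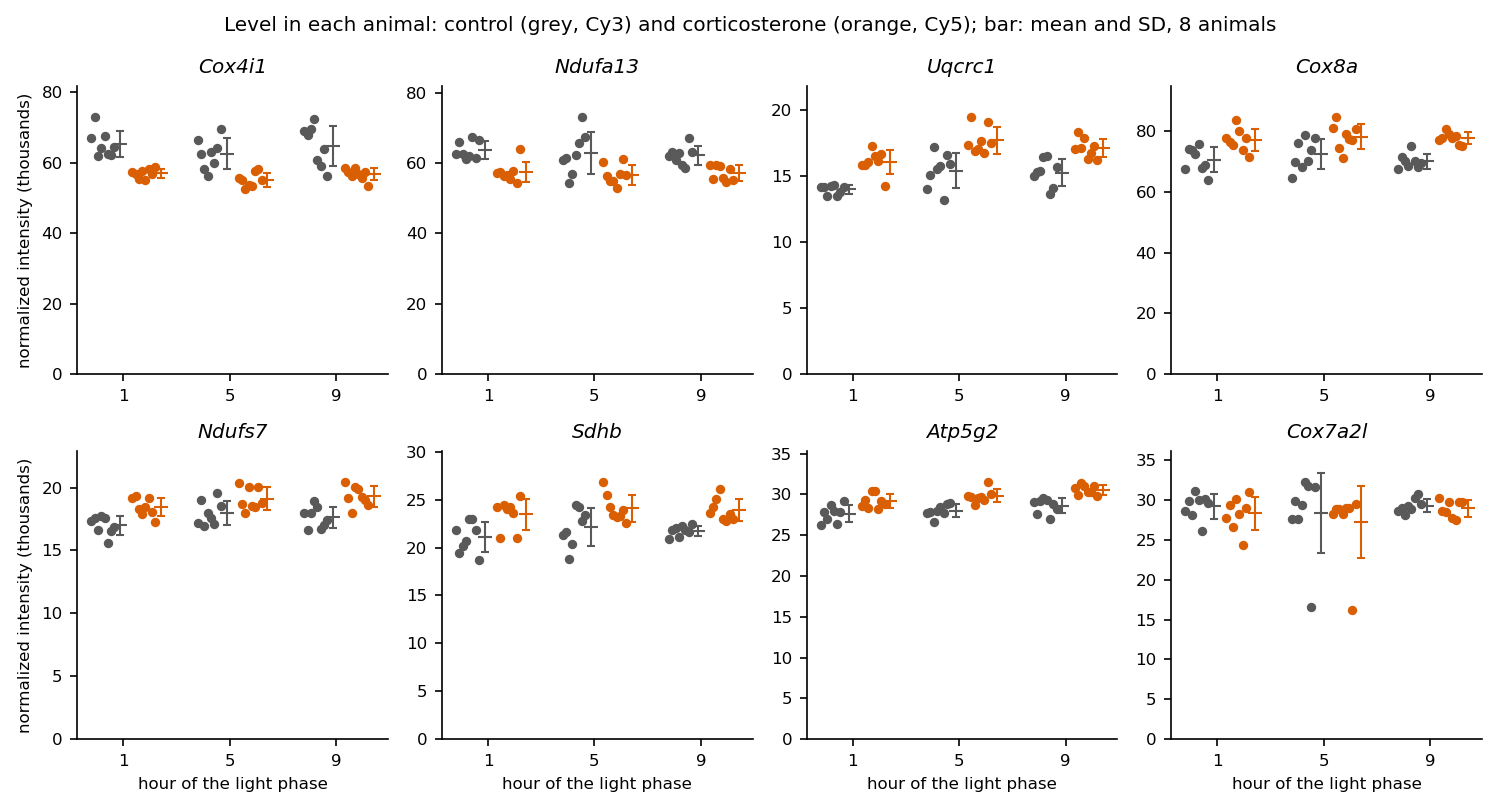
Normalized intensity of 8 genes in every animal (points), with the mean and SD of each group of 8 animals, for control animals (grey, Cy3) and treated animals (orange, Cy5) at hours 1, 5 and 9. The first 7 genes were called at all 3 hours, and Cox7a2l shows a control and a treated animal of the same array at hour 5 (16628 and 16210) far below the others.

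The genes called at all 3 hours were Cox4i1 and Ndufa13 (lower) and Atp5g2, Cox8a, Ndufs7, Sdhb and Uqcrc1 (higher). When slide 1 was left out, with 4 of the 8 arrays of hour 9, none of the 7 was called at all 3 hours, and Cox4i1 at hour 9 had -0.10. Without slide 2 there were 4 and without slide 3 there were 3, Cox4i1 and Uqcrc1 among them in both cases. In the paired fit on log ratios there were 5, without Ndufs7 and Sdhb. RefSeq promoter windows on the GRCm38.p6 build, 250 bases before to 50 after a start listed for the gene, were held for 75 of the 92 members. The motifs of known regulators of these genes were looked for on both strands. The NRF1 site GCGCATGCG was found in 10 of 75 members (13.3%, against 1.95% of all 27025 genes in the table), the ETS core CCGGAAG bound by NRF-2/GABP in 19 (25.3% against 9.93%) and the YY1 core AAGATGGCG in 8 of 75 (against 1.64%). The NRF1 letters read nearly the same on the other strand, so 1 site can match on both strands, and a gene is counted once. The letters AGAACA alone, a part of the glucocorticoid response element, were in 11 members (14.7% against 21.3%), and AGAACA followed after 3 bases by TGTTCT was in 0 of 75, where 3 of all 27025 genes (0.0111%) hold it, too few to tell anything of the members. The E-box CACGTG was in 6 (8% against 8.09%), the D-box core TTATGTAA in 1 (1.33% against 1.11%) and the CRE TGACGTCA in 4 (5.33% against 2.03%). These are matches of letters and were not tested.

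The windows of 4 genes called higher at all 3 hours are given to show where these letters lie, 5′ to 3′ on the gene's strand, with NRF1, ETS and YY1 letters in capitals. Uqcrc1 lies on chromosome 9 and has the NRF1 letters 31 bases after the start of its window's promoter, and Atp5g2 on chromosome 15 has them 42 bases before it. Cox8a on chromosome 19 has ETS letters at 5 bases before and 33 after the start, and Ndufs7 on chromosome 10 has the YY1 letters 25 bases after it. The whole window of Ndufs7 lies after the annotated gene start at 80249105, so the start it uses is a later one.
Uqcrc1 (chr9:108936398-108936697, plus strand): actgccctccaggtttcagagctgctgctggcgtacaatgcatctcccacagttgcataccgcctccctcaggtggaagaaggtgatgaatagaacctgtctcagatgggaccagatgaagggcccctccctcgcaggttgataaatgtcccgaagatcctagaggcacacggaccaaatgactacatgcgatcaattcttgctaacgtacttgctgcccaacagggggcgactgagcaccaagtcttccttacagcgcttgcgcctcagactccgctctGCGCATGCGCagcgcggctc
Atp5g2 (chr15:102670998-102671297, minus strand): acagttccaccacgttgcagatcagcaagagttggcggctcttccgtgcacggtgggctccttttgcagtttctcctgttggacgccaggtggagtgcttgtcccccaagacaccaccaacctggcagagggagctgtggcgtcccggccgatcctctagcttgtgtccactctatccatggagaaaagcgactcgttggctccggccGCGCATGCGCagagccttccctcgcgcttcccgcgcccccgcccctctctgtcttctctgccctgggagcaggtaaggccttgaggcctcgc
Cox8a (chr19:7217567-7217866, minus strand): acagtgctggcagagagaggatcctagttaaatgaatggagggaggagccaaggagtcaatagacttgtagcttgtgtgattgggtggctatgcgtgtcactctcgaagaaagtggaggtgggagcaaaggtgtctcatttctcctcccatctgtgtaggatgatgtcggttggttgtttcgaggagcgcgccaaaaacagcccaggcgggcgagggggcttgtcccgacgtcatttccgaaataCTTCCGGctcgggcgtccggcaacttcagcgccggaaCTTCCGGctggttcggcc
Ndufs7 (chr10:80249199-80249498, plus strand): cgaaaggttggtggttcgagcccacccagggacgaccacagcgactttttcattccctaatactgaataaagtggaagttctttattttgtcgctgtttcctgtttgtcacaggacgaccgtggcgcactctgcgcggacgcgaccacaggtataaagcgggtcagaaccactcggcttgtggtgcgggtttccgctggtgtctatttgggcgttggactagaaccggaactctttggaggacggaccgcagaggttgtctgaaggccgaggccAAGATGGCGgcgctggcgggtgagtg

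No member was called as different between hours. In control animals 0 of 92 genes were called between hours 9 and 1, where 0.537% of all probes were called. Between hours 5 and 1 and between hours 9 and 5 the counts were again 0 of 92, against 0.0053% and 0.0336% of all probes. At an unadjusted p under 0.05, which chance alone passes about 1 in 20 times, 3, 5 and 0 of the 92 members would have passed. In treated animals 0 of 92 were called between hours 9 and 1, where 4.02% of all probes and 1413 of the 15437 bright named genes were called. Between hours 5 and 1 (0.546% of all probes) and hours 9 and 5 (0.661%) it was also 0, with 4, 5 and 4 members at an unadjusted p under 0.05 in these 3 comparisons.

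Among members with small differences between hours, Cox4i1 had a log2 difference of -0.01 in both control and treated animals from hour 1 to hour 9, Atp5b -0.01 and 0.02, Ndufv1 0.0035 and -0.03, and Sdha 0.07 and 0.02. Larger were Uqcrc1 in control animals (0.12, 95% interval 0.0246 to 0.220), Cox6c in control animals (0.18, -0.202 to 0.559) and Cox6a2 in treated animals (0.26, -0.0396 to 0.563), chosen after their values were seen, and none was called. The smallest adjusted p in control animals was 0.14, for the assembly factor Ndufaf3, and in treated animals 0.15, for Atp5g2, between hours 9 and 1. Of the 91 members above background, 93.4% lay within 0.1 of 0 from hour 1 to hour 9 in control animals and 94.5% in treated animals, against 64.9% and 56.2% of the other named genes with an intensity of 50 or more. Probe intensity was not matched between these sets, and it was at least 3862 for complex I and 10870 for complex V. The 95% interval of a member's difference between hours reached 0.106 to either side at the median (0.063 to 0.428), and for 78 members in control animals and 81 in treated animals the whole interval from hour 1 to hour 9 lay within 0.25 of 0. From hour 1 to hour 5 this held for 76 and 74 members, and from hour 5 to hour 9 for 74 and 68. With 8 animals a group, differences inside these intervals are not excluded.

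No change between hours in the difference between corticosterone and control was called in any member either. The counts were 0 of 92 for hour 9 against hour 1 (0.827% of all probes), hour 5 against hour 1 (0.0389%) and hour 9 against hour 5 (0.083%), with 1, 0 and 1 members at an unadjusted p under 0.05, and limma on the arrays' log ratios also called 0, with 2, 1 and 3. The interval of such a change reached 0.129 to either side at the median. The change from hour 1 to hour 9 was -0.03 for Uqcrc1 and 0.01 for Cox4i1 (adjusted p = 1 for both). From hour 5 to hour 9 the change was above 0 in 72 of 92 members, with a median of 0.03 beside 0.01 over the bright named genes. Within slides 1, 2 and 3 that median was 0.0021, -0.0016 and 0.02, and 51, 45 and 64 of 92 members were above 0. The share above 0 among other genes is not given.

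**Figure D4:**
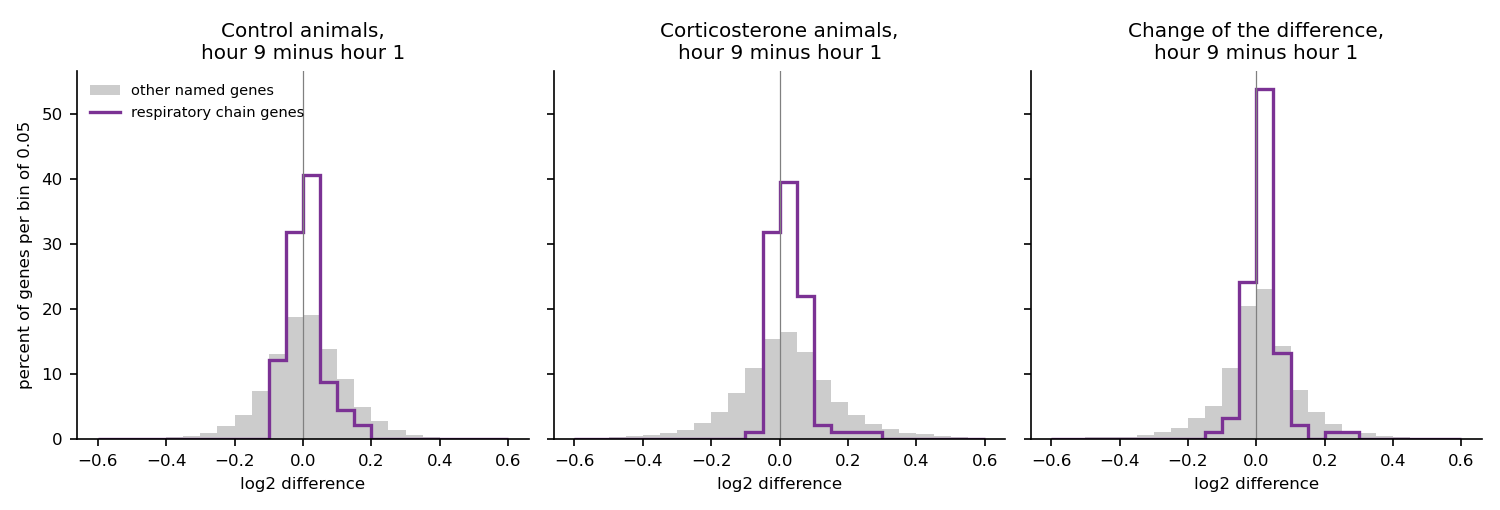
Share of genes in each bin of 0.05 of the log2 difference between hours 9 and 1 in control animals, in treated animals, and for the difference between treated and control animals, for the 91 members above background (violet line) and the other named genes with an intensity of 50 or more (grey). The members lie closer to 0, with 93.4%, 94.5% and 94.5% within 0.1. Probe intensity was not matched between the sets.

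An array at hour 5, replicate 7 on slide 3, stood apart. On it 21 of 92 members had the lowest level of the hour in both channels and 29 the highest in both, where the other 23 arrays had at most 11 lowest and 8 highest. For 15 members both animals lay under 80% of the lowest other animal of their group, as was the case for 9.67% of all probes with an intensity of 50 or more. Ndufs3, a core subunit of complex I, had 6996 in the control and 6489 in the treated animal, while the lowest others had 17730 and 18670, and Ndufa8 had 1769 and 1699 beside 5179 and 5809. Uqcrq of complex III had 12370 and 11370 beside 29920 and 32800, and Cox6c of complex IV 13020 and 11670 beside 36120 and 36860. These 4 genes were chosen after their values were seen. Of these probes 13.9% were lowest on this array in both channels, against 21 of 92 members, and the share highest in both was not computed over all probes. Without this array 19, 15 and 12 members were called at hours 1, 5 and 9, where 18.3%, 14.7% and 14.6% of all probes were, and 0 in each of the other 9 comparisons.

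**Figure D5:**
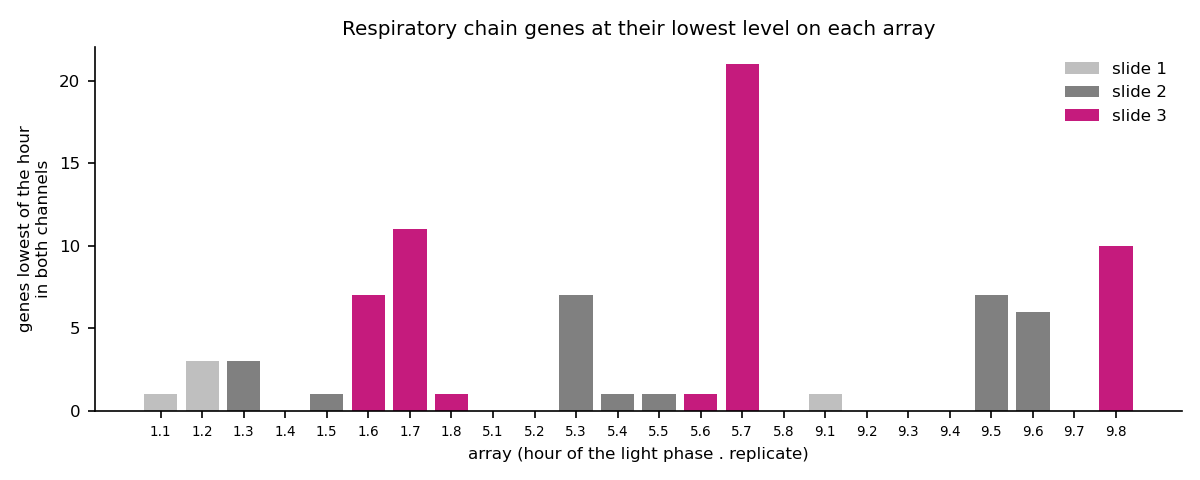
Number of the 92 members that had the lowest level of their hour in both channels, for each of the 24 arrays (hour and replicate), coloured by slide. The array of replicate 7 at hour 5 has 21, and the other arrays have 11 or fewer.

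Genes that work beside the chain were called as follows, from lists of mitochondrial genes. Their counts stand beside 17.5%, 18.1% and 14% of all probes called at hours 1, 5 and 9, and 24.4%, 23.7% and 16.5% of the bright named genes. Of 8 electron carriers and related enzymes, Cycs, cytochrome c, alone was called, lower at hour 1 (-0.10, adjusted p = 0.039). Of 39 assembly factors outside the name rule, 4, 6 and 5 were called at hours 1, 5 and 9, among them Foxred1 of complex I, lower at each hour (-0.28, -0.19 and -0.24), and Surf1 of complex IV, higher at each hour (0.12, 0.09 and 0.13). Of 16 tricarboxylic acid cycle enzymes 5, 5 and 3 were called, with Idh3a, of the isocitrate dehydrogenase, higher (0.17, 0.18 and 0.17) and Dlat, of the pyruvate dehydrogenase complex, lower (-0.11, -0.12 and -0.14) at each hour. Of 16 import and carrier genes 4, 5 and 4 were called.

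Among 14 regulators of mitochondrial gene expression 4, 5 and 5 were called. Nrf1, the factor behind the NRF1 site, was higher at each hour (0.11, 0.13 and 0.15, adjusted p = 0.046, 0.013 and 0.0074) and Esrra, the estrogen-related receptor alpha, lower (-0.16, -0.13 and -0.15, adjusted p = 0.0028, 0.02 and 0.0076). Tfam, which packages and transcribes mitochondrial DNA, was lower at hours 5 and 9 (-0.20 and -0.16). Ppargc1a, the coactivator PGC-1α, did not pass the test (0.09, 0.12 and 0.13, adjusted p = 0.2, 0.071 and 0.064). Of 78 mitochondrial ribosomal proteins 22, 26 and 18 were called, and of 87 cytosolic ribosomal proteins 24, 34 and 21, with 18, 29 and 16 of the latter lower, where 8.67%, 9.47% and 6.97% of all probes were called lower. None of these lists is compared with the members by a test. The lists of mitochondrial and ribosomal genes are given under the main setting alone. That setting holds the quantile step on which the lower calls of Cox4i1 and Ndufa13 rested.

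Some markers of cell types also differed between corticosterone and control. At hours 1, 5 and 9, 17.5%, 18.1% and 14% of all probes were called. Among oligodendrocyte markers, Mbp, a myelin protein, was higher at each hour (0.20, 0.18 and 0.17) and Mag, a myelin glycoprotein, lower (-0.27, -0.42 and -0.30), while Mog (-0.07, -0.15 and -0.06) and Cnp (-0.03, -0.14 and -0.10) did not pass the test. A further marker of this list and its summed level are not given. These values therefore do not show the direction of the list as a whole. Of 5 endothelial markers 4, 3 and 3 were called, in both directions, and their sum at hour 1 ran from 9351 to 11640 in control and from 6460 to 8743 in treated animals, without overlap. At hour 5 the sums ran from 9622 to 12110 and from 7658 to 9528, and at hour 9 they overlapped (8663 to 10400 and 8198 to 9441). Of 5 astrocyte markers 2 were called at each hour, Aqp4 lower and Aldh1l1 higher, and of 6 neuron markers 0, 2 and 1, higher. No choroid plexus marker was called. Of the 7 hippocampal markers C1ql2 alone was called, higher at hour 9 (0.29, adjusted p = 0.0028), and of the 4 for striatum and thalamus Tcf7l2 alone, higher at hour 1 (0.20, adjusted p = 0.045). Of 5 microglia markers 3, 2 and 1 were called, all lower. The part of cell composition in the members' differences was not tested.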

How the data were processed

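RNA from single hippocampi was hybridised to Agilent mouse arrays of 62976 spots, with the control animal in Cy3 and the corticosterone-treated animal in Cy5 on each of 24 arrays on 3 slides. The authors deposited the scanner software's output, with mean and background intensity per spot and channel, and a table of log2 ratios per array. The deposited log2 ratios were closest to loess-normalized ratios with an offset of 50 (median absolute difference 0.00119), and their scale and direction were taken from this match.

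From the intensities, control spots (3671) and outlier flags were left out, the background was corrected by normexp, and loess and quantile normalization followed, where p-values came from values with the offset 50, and levels, log2 differences and SE from values with the offset 0. The 56605 probes were fitted in limma 3.58.1 (R 4.3.3) with the separate channel model over 6 groups (intraspot correlation 0.279), and p-values were adjusted over all probes by Benjamini and Hochberg. The model was checked on simulated data. The brightest probe stood for a gene, and accessions named 34566 probes. P-values rest on the spread between these animals, and 8 per group limit the precision. The paper describes groups drawn from several litters, with siblings of the treated mice as controls. The fit had no term for litter.

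The members and gene lists were chosen with earlier results of these data known. Genes were named by a rule: up to 5 higher and 5 lower per comparison by adjusted p, beside isoform pairs, catalytic subunits, the c subunit genes, the inhibitor and complex II. Other genes named here were chosen after their values were seen. Alternatives covered the offset, background, normalization, filters, slides, probe choice and test. For the oligodendrocyte list, 1 marker and the summed level are not reported here.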

Additional observations from a re-analysis of the deposited data

Results flagged for a closer look

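In each group of 8 animals, the gap of the highest or lowest animal to its neighbour was divided by the range of the group, for 35 named genes and 6 groups. Of 210 such groups 22 passed Dixon's 95% critical value, where chance alone passes about 1 in 20.

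At hour 1 the highest animal stood apart for Cox6b2 in control animals (0.649), Ndufa13 in treated animals (0.625), Ndufa4 in treated animals (0.559), Ndufaf2 in treated animals (0.757), Sdha in treated animals (0.614), Sdhd in treated animals (0.59) and Uqcrfs1 in treated animals (0.649). At hour 1 the lowest animal stood apart for Atp5d in treated animals (0.527) and Uqcrc1 in treated animals (0.548). At hour 5 the lowest animal stood apart for Cox6b1 in control animals (0.701), Cox6b1 in treated animals (0.8), Cox7a2l in control animals (0.765), Cox7a2l in treated animals (0.925), Ndufa4 in treated animals (0.57), Ndufa4l2 in control animals (0.787), Ndufa4l2 in treated animals (0.695), Ndufaf2 in treated animals (0.549), Ndufv1 in control animals (0.805) and Ndufv1 in treated animals (0.752). At hour 9 the highest animal stood apart for Ndufa4 in treated animals (0.564). At hour 9 the lowest animal stood apart for Atp5k in treated animals (0.543) and Sdhc in treated animals (0.582). 

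The low values of Cox6b1, Cox7a2l, Ndufa4l2 and Ndufv1 at hour 5 came in both channels, and these genes are among the 15 genes that were low in both channels of the array of replicate 7.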

How the results depend on the processing

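Over the alternatives, the number of members called ran from 7 to 23 at hour 1, from 6 to 23 at hour 5 and from 1 to 16 at hour 9. With no normalization between arrays 8, 7 and 4 of the 17, 17 and 11 genes called at hours 1, 5 and 9 were still called, among 12, 11 and 8 in all, and with Aquantile 11, 12 and 8, among 18, 19 and 13. The count fell to 7 at hour 1 without slide 2 (8.09% of all probes called), to 11 at hour 5 with no normalization between arrays (17.5%), to 10 without slide 1 (10.8%) and to 6 without slide 3 (7.36%), and to 1 at hour 9 without slide 1 (3.37%). Fewer arrays were fitted without a slide, and the cause of the fall was otherwise not tested. Between hours the count stayed at 0 under every alternative run, except for 1 gene between hours 9 and 1 in treated animals with no background correction. Ndufa13 turned to 0.0085 at hour 1 with the authors' log2 ratios, to 0.0054 at hour 5 with Aquantile or with no normalization between arrays and to 0.0233 with the authors' ratios, and to 0.0370, 0.0370 and 0.0451 at hour 9 under the same 3 settings. Atp5h turned to 0.0045 at hour 1 with the authors' ratios and to 0.0267 at hour 5, where it had 0.0097 with loess alone and with Aquantile. Atp5l at hour 1 turned to 0.0359 with loess alone and with Aquantile, and to 0.046 with the authors' ratios. The cause was not tested. Leaving out the array of replicate 7 at hour 5, an alternative chosen after seeing the data, ended 3 of the 17 calls at hour 5, that of Atp5d among them (log2 difference 0.11).

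Between hours, no paired analysis was made, since the replicate numbers follow the order of the samples and the labels give none. Between treatments, the fit on log ratios, which takes the 2 animals of an array as a pair, called 19, 17 and 11 members at hours 1, 5 and 9, among them 16 of 17, 13 of 17 and 10 of 11 of those called without pairing, and 5 of the 7 genes called at all 3 hours, without Ndufs7 and Sdhb.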
